A study of Mus musculus with 105 samples.

Results

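The spleen and the lymph node (LN) of healthy mice were compared head to head in 8 of the 105 RNA sequencing libraries of a mouse series, 4 labelled Spleen and 4 labelled LN. The libraries were chosen by these tissue labels alone. All 8 came from wild-type female C57BL/6 mice, and no treatment or deletion is given for them. Age, the body site of the nodes and whether each library was made from its own mouse are not given in the labels, so every p-value measures the spread between these libraries, which may be partly technical. The tissue had been cut up in RNAlater and homogenised, and polyadenylated RNA was sequenced from TruSeq Stranded mRNA libraries. Read counts per gene were deposited, and levels are given as CPM, a gene's counts relative to the total of its library. These values are not corrected for gene length, so levels are compared only within a gene. Values are listed in the order of replicates 1, 2, 3 and 4 of each tissue.

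Both organs hold B cells and T cells in compartments organised by stromal cells. The spleen filters blood: its red pulp contains macrophages that take up old red cells and recycle their iron, and in mice it also makes red cells and platelets. The lymph node filters lymph: lymphatic vessels bring dendritic cells from the tissues, and naive lymphocytes leave the blood through high endothelial venules, vessels with their own set of adhesion molecules. A whole-organ RNA library mixes all of these cells, so fewer cells of a type and less RNA per cell cannot be told apart.

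The LN libraries held 68891429 to 85680031 counts and the spleen libraries 66391452 to 110034002. The tissue labels matched the defining markers: the erythroid and red pulp macrophage markers lay far above LN in all 4 spleen libraries, and the high endothelial venule markers far above spleen in all 4 LN libraries. Several libraries stood apart within their tissue. Spleen replicate 4 alone carried exocrine pancreas genes, LN replicate 3 and, less strongly, LN replicate 2 carried fat and gland epithelium genes, and spleen replicates 1 and 3 were low in long transcripts, with a slope of -0.16 and -0.15 in log2 CPM per doubling of exon length against 0.02 to 0.06 in the other 6 libraries. LN replicate 4 had the code D804 in its title and the other 7 libraries D812, and the labels do not say what this code stands for. The part of these features in the results was not tested beyond the values given beside them.

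Of 19628 genes with enough counts, 2523 (12.9%) were called higher in spleen and 3132 (16%) higher in LN by edgeR's quasi-likelihood test at an adjusted p under 0.05. Every spleen library lay above every LN library for 11.9% of the tested genes, and the reverse held for 18.7%. The median log2 fold (spleen over LN) over all tested genes was -0.02. At least 32-fold differences were found for 156 of the genes called higher in spleen and 112 of those called higher in LN. Without spleen replicate 4 and LN replicates 2 and 3 together, 1664 genes were called higher in spleen and 1757 higher in LN, and without spleen replicates 1 and 3 the counts were 1818 and 1756.

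**Figure D1:**
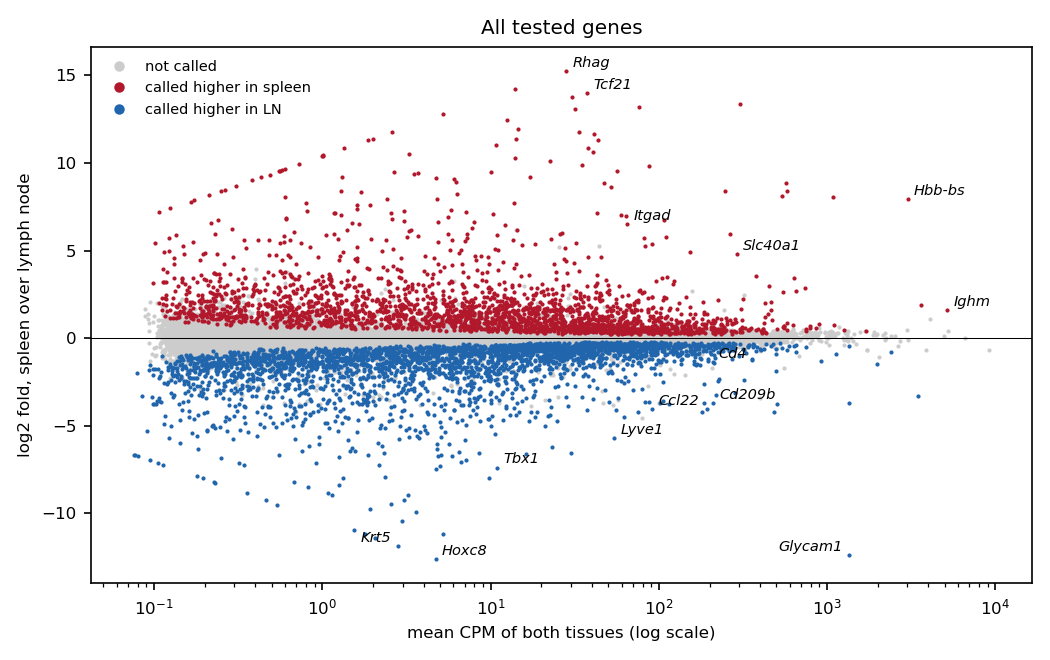
Log2 fold of spleen over LN (vertical axis) against the mean CPM of both tissues (horizontal axis, log scale) for the 19628 tested genes. Red points were called higher in spleen, blue points higher in LN and grey points were not called; the fitted folds of the named genes span -12.61 (Hoxc8) to 15.23 (Rhag), both with no count in 1 tissue, so that these 2 values depend on the fit and are no bounds.

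Of the 15 named genes with the highest log2 fold in spleen, 6 belonged to the erythroid list (among them Rhag, Epb42, Slc4a1, Kel and Rhd) and 4 to a list of transcription factors of the splenic stroma (Tcf21, Nkx2-5, Nkx2-3 and Wt1). The other 5 were Slc38a5, an amino acid transporter, Btnl10, a butyrophilin-like gene, Pklr, the pyruvate kinase of liver and red cells, Add2, a subunit of the membrane skeleton protein adducin, and Redrum, a long non-coding RNA. In 11 of these 15 genes spleen replicates 3 and 4 were the highest spleen libraries and replicate 2 the lowest, the order of the erythroid list. Among the 15 genes with the largest fold towards LN, 9 (Hoxc8, Krt5, Foxa1, Atp6v1b1, Irx2, Tfap2b, Irx1, Wfdc2 and Cdsn) were more than 3 times as high in LN replicate 3 as in LN replicates 1 and 4, with LN replicate 2 second in all 9. The other 6 were Glycam1, Tbx1, Tbx15, Cldn11, Oit1 and Bpifb2. Without spleen replicates 1 and 3, the calls of Slc38a5 and Redrum towards spleen were lost (edgeR adjusted p = 0.0524 and 0.0843), as were those of Krt5, Foxa1, Atp6v1b1, Tfap2b, Wfdc2 and Cdsn towards LN (0.0617 to 0.131). Redrum and Cdsn were also lost without spleen replicate 4 and LN replicates 2 and 3 (0.066 and 0.0622). The fat- and epithelium-marked LN libraries are described further below.

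Several transcription factors of the stroma were read in spleen and were next to absent from LN. Of 11 factors listed for splenic stroma, 8 were called higher in spleen, 2 higher in LN and 1 was not called, and the median log2 fold was 9.34 against -0.02 over all tested genes. That median is the fitted fold of Barx1, which had no LN count, and it is 6.61 when the genes with no LN count (Nkx2-5 and Barx1) are set to their lower bounds. Tlx1, a homeobox gene needed for the spleen to form, was read at 57.2, 45.2, 39.1 and 37.8 CPM in spleen and at 0.0352, 0.0581, 0.0369 and 0.035 CPM in LN. The spleen libraries lay close together and the log2 fold was 10.09 (SE 0.23, edgeR adjusted p = 1.05e-07).

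Tcf21, a basic helix-loop-helix factor of mesenchymal cells that is also needed for the spleen to form, stood at 92.9, 71, 65.9 and 69.1 CPM in spleen. A total of 1 count in the 4 LN libraries (LN replicate 2) gave a ratio of 23700, with a 95% counting interval from 4250 to 935000. The homeobox gene Nkx2-5, best known from the heart, had 14.5, 9.02, 11 and 7.09 CPM in spleen and no count in LN, so that it was at least 1070-fold higher in spleen when 3 counts over the 4 LN libraries are taken as the limit of detection. Its relative Nkx2-3, which is needed for spleen and gut vessels to take up lymphocytes, was at 30.4, 25, 23.8 and 21.3 CPM in spleen and had 1 count in LN. Each of these 3 genes thus had at most 1 count in all of LN and no overlap with spleen.

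Wt1, a zinc finger factor of splenic mesenchyme and mesothelium, reached 32.5, 29.1, 21.3 and 31.2 CPM in spleen and 3 counts in all of LN. Barx1, a homeobox gene of the stomach and spleen region, was low in spleen too (2.02, 0.654, 0.503 and 0.725 CPM) and had no count in LN, at least 97.4-fold lower. The broadly expressed factors of the list moved little: Nr2f2 and Pbx3 were higher in spleen (log2 fold 0.49 and 0.57; edgeR adjusted p = 0.00666 and 0.00302), and Meis2 and Hoxa5 higher in LN (-0.75 and -0.61; 0.00913 and 0.0321). The Hoxa5 call was lost when LN replicate 1, 3 or 4 or spleen replicate 1 or 4 was left out (edgeR adjusted p = 0.0569 to 0.0802) and without spleen replicates 1 and 3 (0.0599). Without spleen replicate 4 and LN replicates 2 and 3 together those of Nr2f2, Pbx3, Meis2 and Hoxa5 were lost (0.0582 to 0.0877). Wt1 also stood on the list of the mesothelium, the sheet of cells that covers the organ. Of its 7 members 5 were called higher in spleen, beside 12.9% of all tested genes, and 2 were not called (lowest log2 fold -3.36). The summed CPM of the list did not separate the organs: it was 96, 57.5, 56.4 and 73.2 CPM in spleen and 8.1, 40.9, 144 and 4.56 CPM in LN. Msln, the mesothelial surface protein mesothelin, was read at 13.7, 5.2, 10.1 and 9.09 CPM in spleen and at 0.0235, 0.116, 0.0123 and 0.0117 CPM in LN (log2 fold 7.95, SE 0.63, edgeR adjusted p = 3.42e-05), so the part of the covering layer in the Wt1 level was not tested.

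Hox genes ran the opposite way. These homeobox genes sit in clusters and mark the position of a cell along the body axis, with higher numbers towards the tail. The family was described whole after its values had been seen. Of 28 Hox genes tested, 24 were called higher in LN, none higher in spleen, and the other 4 (Hoxa2, Hoxa4, Hoxb2 and Hoxb4) were not called; every LN library lay above every spleen library for 24 of the 28. Among the 10 with numbers 1 to 4 the median log2 fold was -0.97 and 6 were called, and among the 18 with numbers of 5 and above it was -3.31 and all 18 were called.

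Large Hox differences were found in later genes of the HoxA, HoxC and HoxD clusters and in the early gene Hoxd3. Hoxa10 was at 1.19, 1.8, 2.95 and 1.39 CPM in LN and at most 0.032 CPM in spleen (log2 fold -7.11, edgeR adjusted p = 8.14e-05). Hoxd3 was low throughout, at 0.222 to 0.377 CPM in LN and 1 count in spleen (-5.97, adjusted p = 0.00012). Hoxd9 was at 14.3, 12.7, 11.6 and 12.9 CPM in LN and at 0.226, 0.1, 0.0431 and 0.181 CPM in spleen (log2 fold -6.51, edgeR adjusted p = 7.5e-06). Hoxc6 was at 10.6, 9.64, 14.5 and 9.44 CPM in LN and at 0.105, 0.173, 0.201 and 0.16 CPM in spleen (-6.06, adjusted p = 2.39e-06). Hoxc8 had no count in spleen and 5.57, 9.28, 18.2 and 4.61 CPM in LN, at least 1060-fold higher, with the highest value in the fat-marked LN replicate 3. Hoxd9 did not follow the fat genes, since LN replicate 3 was its lowest LN library, whereas Hoxc8 did. Hoxb4 differed by less than the spread: it was at 9.53, 9.91, 8.37 and 8.05 CPM in spleen and 9.76, 9.57, 11.1 and 9.55 CPM in LN (log2 fold -0.12, adjusted p = 0.483).

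**Figure D2:**
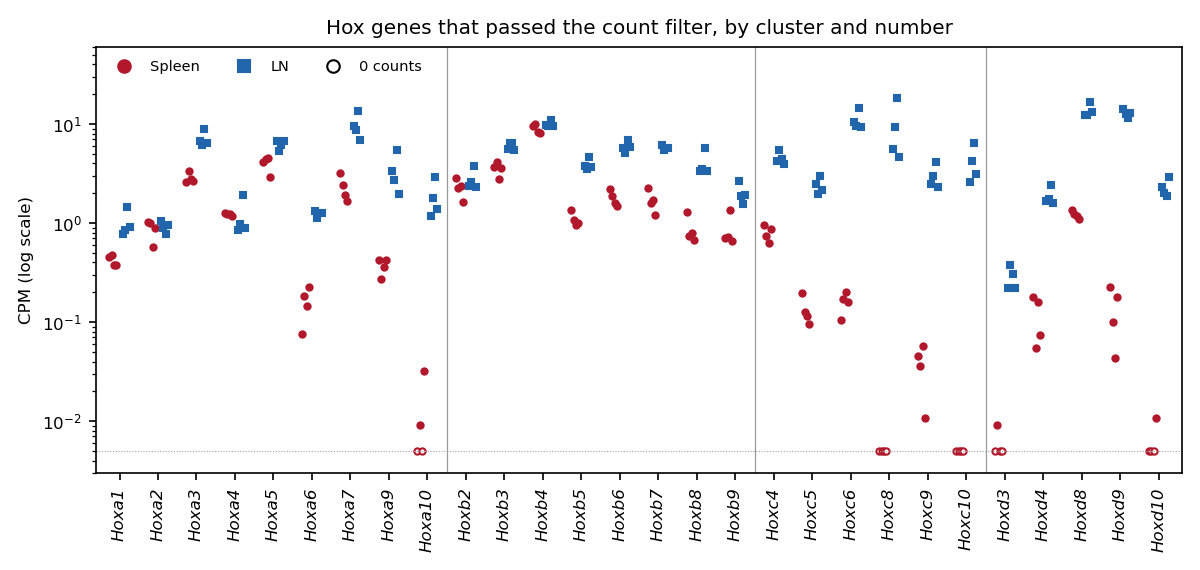
CPM (vertical axis, log scale) of the 28 Hox genes that were tested, ordered by cluster and number; red circles are the 4 spleen libraries and blue squares the 4 LN libraries, and open symbols on the dotted line are 0 counts. Hoxb4 overlaps between the tissues, while Hoxc8 has no count in spleen.

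Erythroid genes were far higher in spleen. Of 25 tested members of the erythroid list 24 were called higher in spleen and none higher in LN, with a median log2 fold of 8.88, and in all 24 every spleen library lay above every LN library. Only Aqp1, a water channel that vessels also make, was not called (log2 fold 0.22, edgeR adjusted p = 0.802). Summed over the list, the spleen libraries held 10400, 5250, 20900 and 16200 CPM and the LN libraries 233 to 396 CPM. The LN sum came largely from Aqp1 (164 to 283 CPM).

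The regulators of the red cell programme and its end products were both read in spleen. Klf1, the Krüppel-like factor that switches on adult globin genes, was at 29.5, 5.49, 136 and 108 CPM in spleen and at 0.0352 to 0.152 CPM in LN (log2 fold 9.91, SE 1.24, edgeR adjusted p = 0.000431). Gata1, the master factor of red cells and platelets, was at 25, 6.12, 89.3 and 61 CPM in spleen and 2.37 to 2.58 CPM in LN (log2 fold 4.24, SE 0.73, adjusted p = 0.00258). Even spleen replicate 2, the lowest, lay above each LN library for both, though without spleen replicate 4 and LN replicates 2 and 3 Gata1 missed the threshold (adjusted p = 0.0506).

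Alas2, the enzyme that starts haem synthesis in red cells, ranged from 246 to 715 CPM in spleen and 1.55, 0.973, 2.91 and 0.502 CPM in LN (log2 fold 8.41, SE 0.72, adjusted p = 5.16e-05). Rhag, the Rh-associated ammonia channel, was at 22, 4.58, 95.7 and 104 CPM in spleen and had no count in LN, at least 5780-fold lower. Spleen replicates 3 and 4 were thus the highest libraries and replicate 2 the lowest for each of these genes, and the same order held for all 25 tested members.

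Globin messages behaved likewise. Hbb-bs, an adult beta globin, was at 5520, 2770, 9190 and 6470 CPM in spleen and at 25.4, 14, 50.5 and 8.33 CPM in LN (log2 fold 7.96, SE 0.77, adjusted p = 9.93e-05). Hba-a1, an alpha globin, was at 1810, 935, 3630 and 2250 CPM against 7.9, 5.04, 17.1 and 3.38 CPM (8.04, SE 0.75, adjusted p = 8.53e-05). Hba-a1 and Hba-a2, and Hbb-bs and Hbb-bt, are near-identical copies whose reads could be shared or dropped by the counting, so the split within each pair is uncertain. Haemoglobin genes together took 0.47% to 1.64% of the spleen counts and at most 0.00805% of the LN counts.

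Promoters are shown for 4 of the 5 defining erythroid genes, those with a window among the promoters searched. The order of the spleen libraries did not single them out, since all 25 tested erythroid genes shared it. Each run is the 250 bases before the RefSeq start site (GRCm38.p6), 5′ to 3′ on the strand of the gene. Capitals mark matches, on either strand, to AGATAA or TGATAA (the GATA factor motif), CCACACCC (the motif of Krüppel-like factors) or GAGGAA (an Ets-type core); none of the matches overlapped.
Hba-a1, chr11:32283422-32283671, plus strand: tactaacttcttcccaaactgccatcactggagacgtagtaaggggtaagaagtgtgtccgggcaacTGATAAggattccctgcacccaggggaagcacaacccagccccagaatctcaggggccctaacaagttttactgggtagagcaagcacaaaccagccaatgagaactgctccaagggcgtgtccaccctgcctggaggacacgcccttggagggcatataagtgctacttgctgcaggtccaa
Hbb-bs, chr7:103827929-103828178, minus strand: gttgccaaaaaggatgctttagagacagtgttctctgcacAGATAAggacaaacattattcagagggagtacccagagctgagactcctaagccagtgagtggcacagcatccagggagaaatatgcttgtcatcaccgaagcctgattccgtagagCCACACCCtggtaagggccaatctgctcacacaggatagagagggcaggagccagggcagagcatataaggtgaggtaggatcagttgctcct
Alas2, chrX:150547167-150547416, plus strand: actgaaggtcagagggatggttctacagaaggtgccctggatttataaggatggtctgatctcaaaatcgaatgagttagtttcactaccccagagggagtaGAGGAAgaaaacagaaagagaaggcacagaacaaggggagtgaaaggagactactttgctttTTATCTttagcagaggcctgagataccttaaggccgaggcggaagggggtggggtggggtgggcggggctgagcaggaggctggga
Klf1, chr8:84901732-84901981, plus strand: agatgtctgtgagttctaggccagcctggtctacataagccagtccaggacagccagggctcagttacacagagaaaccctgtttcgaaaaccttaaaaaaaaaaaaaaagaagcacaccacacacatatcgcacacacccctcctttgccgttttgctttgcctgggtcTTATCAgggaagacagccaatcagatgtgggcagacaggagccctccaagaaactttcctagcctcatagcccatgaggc
Each of the 4 windows held 1 GATA match, whereas 16.6% of all 32851 RefSeq windows of this length held at least 1. Hbb-bs held the CCACACCC motif 86 to 93 bases before its start, found in 3.2% of all windows, and Alas2 held GAGGAA, found in 23.3%. A window was also given for 5 defining genes of other lists. Fut7, a high endothelial venule gene higher in LN, held a GATA match too (AGATAA on the other strand, 184 to 189 bases before its start), so the match was not limited to the erythroid genes. The red pulp macrophage genes Spic and Cd163 and the high endothelial venule genes Glycam1 and Chst4 held none of the motifs. A match is a description of the letters, not of factor binding.

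Proliferation genes followed the erythroid order inside the spleen. Of 22 cell cycle genes 20 were called higher in spleen and none higher in LN (median log2 fold 1.5), yet only 4 kept all spleen libraries above all LN libraries. Mki67, the Ki-67 proliferation antigen, was at 584 and 576 CPM in spleen replicates 3 and 4, at no less than 134 CPM in replicates 1 and 2, and at 63.3, 116, 63.9 and 89.6 CPM in LN (log2 fold 2.20, SE 0.51, edgeR adjusted p = 0.0119). Top2a, the topoisomerase of dividing cells, was at 114, 98.9, 284 and 277 CPM in spleen and 59.3, 106, 58.9 and 84.2 CPM in LN (1.39, SE 0.39, adjusted p = 0.0276). Spleen replicates 3 and 4 lay above every LN library for all 22 genes, while replicate 2 lay below the highest LN library for 18 of them, and the spleen order was that of the erythroid genes in all 22.

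These calls rested on few libraries. Without spleen replicate 3 there were 5 calls, without spleen replicate 4 there were 7, without LN replicate 1 there were 5 and without LN replicate 3 there were 10. Without spleen replicates 1 and 3 there was 1, and without spleen replicate 4 and LN replicates 2 and 3 none. In these fits Top2a was lost without LN replicate 1, 3 or 4 or spleen replicate 3 or 4 (edgeR adjusted p = 0.052 to 0.0775), without spleen replicates 1 and 3 (0.0836) and without spleen replicate 4 and LN replicates 2 and 3 (0.132). Mki67 was lost only without spleen replicate 4 and LN replicates 2 and 3 together (0.0884) among the fits that left libraries out. The part of the red cell genes, whose order of libraries these genes shared, was not tested.

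**Figure D3:**
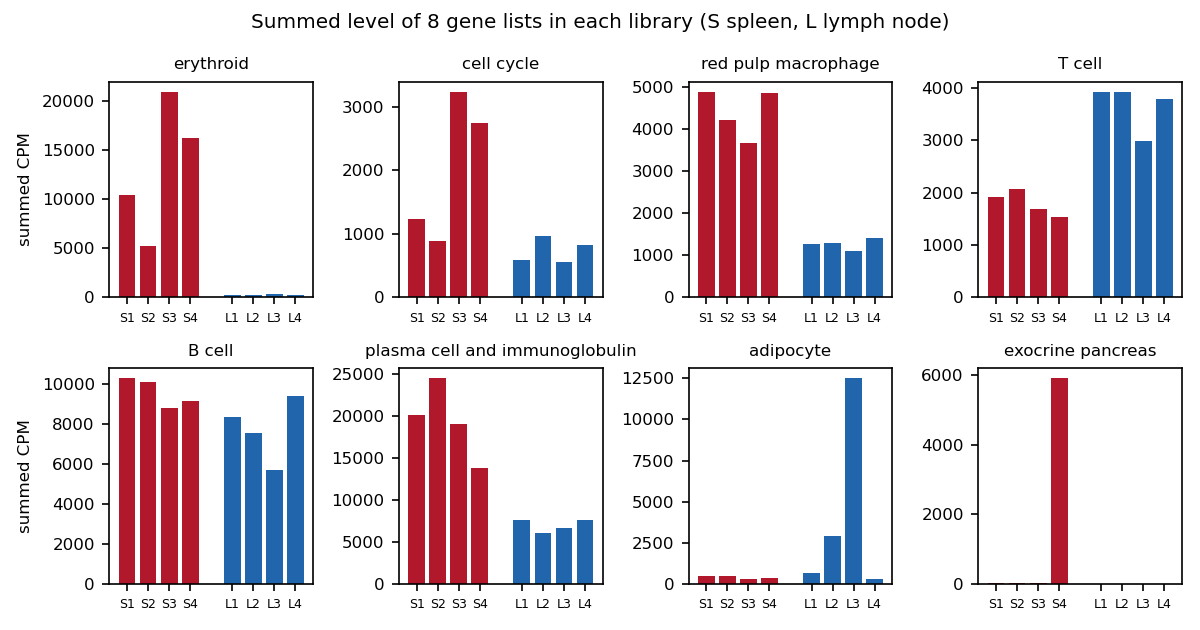
Summed CPM (vertical axes, from 0) of 8 gene lists in each library; red bars S1 to S4 are spleen replicates 1 to 4 and blue bars L1 to L4 LN replicates 1 to 4. The erythroid and cell cycle lists share the order of the spleen libraries (lowest in S2), the adipocyte list peaks in L3 at 12500 CPM and the exocrine pancreas list reaches 5910 CPM in S4.

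Megakaryocyte and platelet genes were also a spleen programme, without the spread of the red cell genes. Of 18 members 15 were called higher in spleen, 1 (Nbeal2, a gene needed for platelet alpha granules) higher in LN and 2 were not called, and the median log2 fold was 3.90. Nbeal2 was lost without LN replicate 2 or 4 or spleen replicate 1 (edgeR adjusted p = 0.0521 to 0.0556), without spleen replicates 1 and 3 (0.0869) and without spleen replicate 4 and LN replicates 2 and 3 (0.0557). Pf4, the platelet chemokine CXCL4, was at 34.7, 25.5, 34.7 and 30.8 CPM in spleen and 1.87, 2.32, 3.42 and 3.01 CPM in LN (log2 fold 3.60, SE 0.24, edgeR adjusted p = 1.19e-05). Gp9, a subunit of the platelet receptor for von Willebrand factor, was at 10, 7.62, 15.3 and 13.6 CPM in spleen and 0.0117, 0.029, 0.0123 and 0.233 CPM in LN (7.33, SE 0.78, adjusted p = 0.000176).

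LN replicate 4 was the highest LN library for Gp9 and Ppbp, a platelet chemokine at 74.2 to 113 CPM in spleen and 0.123 to 2 CPM in LN. Itga2b, the platelet integrin, was not called (log2 fold 0.38, adjusted p = 0.16): its spleen libraries, at 46.4, 49.8, 54.2 and 62.9 CPM, overlapped those of LN at 37.9, 45.2, 29.6 and 57.3 CPM.

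All 17 red pulp macrophage genes were called higher in spleen, with a median log2 fold of 1.87 and no overlap between the tissues in any of the 17. Their order was unlike that of the red cell genes: spleen replicate 3 had the lowest sum of the list, 3660 CPM, against 4880, 4210 and 4840 CPM in replicates 1, 2 and 4, while LN held 1110 to 1410 CPM. Spic, the Ets-family factor needed for red pulp macrophages, was at 146, 119, 109 and 121 CPM in spleen and 32.5, 28.5, 21.6 and 30.6 CPM in LN (log2 fold 2.17, SE 0.13, edgeR adjusted p = 7.5e-06). Its message was thus present in all LN libraries at a lower level.

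Genes for uptake of haemoglobin and release of iron differed more. Slc40a1, the iron exporter ferroportin, was at 614, 527, 441 and 667 CPM in spleen and 24.2, 17.9, 20.2 and 19.5 CPM in LN (log2 fold 4.82, SE 0.17, adjusted p = 5.26e-07). Hmox1, which breaks haem down, was at 877, 585, 594 and 726 CPM against 65.4, 65.3, 48 and 67.1 CPM (3.54, SE 0.16, adjusted p = 2.41e-06). Cd163, the receptor for haemoglobin bound to haptoglobin, was at 47, 66.1, 28 and 70.1 CPM against 1.83, 4.76, 7.8 and 1.68 CPM (3.73, SE 0.56, adjusted p = 0.00125). Cd163 was highest in LN in the fat-marked replicates 3 and 2, and its spleen values were lowest in replicates 1 and 3.

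The highest fold of the list was that of Itgad, an integrin alpha chain of macrophages. It was read at 112, 134, 93 and 175 CPM in spleen and at 2.09, 1.39, 0.799 and 1.58 CPM in LN (log2 fold 6.50, SE 0.33, adjusted p = 3.27e-06). Treml4, a receptor on macrophages and dendritic cells, followed the same pattern at 63.1 to 98.9 CPM against 4.57 to 7.84 CPM (3.62, SE 0.19, adjusted p = 4.11e-06). General macrophage genes differed least: Cd68 was at 95 to 118 CPM in spleen and 60.2 to 93.4 CPM in LN (0.51, SE 0.12, adjusted p = 0.0136), and the complement C1q genes C1qa, C1qb and C1qc had log2 folds of 0.98 to 1.07. The Cd68 call was lost without spleen replicate 4 and LN replicates 2 and 3 together (adjusted p = 0.108).

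In the wider list of iron and haem handling 12 of 21 genes were called higher in spleen, none higher in LN and 9 were not called (median log2 fold 0.81). Hmox1, Slc40a1 and Slc11a1 also stand on the red pulp macrophage list, so their calls count in both lists. The red cell order of spleen libraries held for 6 of the 21 genes, Tfrc and Fech among them. Tfrc, the transferrin receptor, was at 120, 72, 403 and 367 CPM in spleen and 39.9 to 64.7 CPM in LN (log2 fold 2.33, SE 0.53, adjusted p = 0.0107). Fech, the last enzyme of haem synthesis, was at 95.7, 66.5, 234 and 294 CPM against 30.8 to 53.8 CPM (2.18, SE 0.47, adjusted p = 0.00882). Without spleen replicate 4 and LN replicates 2 and 3 together Tfrc was not called (1.96, adjusted p = 0.125). Storage of iron differed little. The ferritin light chain Ftl1 was higher in spleen (0.80, adjusted p = 0.000906), and the heavy chain Fth1, at 1130 to 1660 CPM in spleen and 1120 to 1250 CPM in LN, was not called (0.37, adjusted p = 0.0943).

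Macrophages named for the splenic marginal zone did not share this direction. Of 9 genes listed for marginal zone and lymph node sinus macrophages, 5 were called higher in LN, 1 higher in spleen and 3 were not called (median log2 fold -1.56). Cd209b, the C-type lectin SIGN-R1 by which marginal zone macrophages are often recognised, was at 33.3, 31, 15.4 and 35.6 CPM in spleen and at 404, 381, 300 and 480 CPM in LN (log2 fold -3.72, SE 0.26, edgeR adjusted p = 1.68e-05). Siglec1, the sialic acid receptor CD169 of metallophilic and sinus macrophages, was at 64.2, 104, 48.8 and 129 CPM in spleen and 224, 272, 206 and 349 CPM in LN (-1.56, SE 0.30, adjusted p = 0.00449). Every LN library lay above every spleen library for both genes.

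Marco, a scavenger receptor of marginal zone macrophages, was at 330, 223, 179 and 251 CPM in spleen and 215 to 485 CPM in LN, ranges that overlap (-0.49, SE 0.24, adjusted p = 0.161). Nr1h3, the nuclear receptor LXR alpha on which these splenic macrophages depend, was the member called higher in spleen (0.80, SE 0.15, adjusted p = 0.00342).

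Among other myeloid cells, neutrophil granule genes leaned to spleen: 10 of 19 were called higher there, none higher in LN and 9 were not called (median log2 fold 1.49). S100a9, a calcium-binding protein abundant in neutrophils, was at 117, 78.3, 123 and 83 CPM in spleen and at 37.3, 9.04, 4.91 and 28.7 CPM in LN (log2 fold 2.39, SE 0.57, edgeR adjusted p = 0.0136). LN replicates 2 and 3 lay below LN replicates 1 and 4 for 14 of the 19 genes, and without spleen replicate 4 and LN replicates 2 and 3 together 6 genes were called. Without spleen replicates 1 and 3 there were 4 calls, and S100a9 was lost (2.09, adjusted p = 0.106). The defining granule gene Ngp was not called (1.57, SE 0.79, adjusted p = 0.167), since 26 and 22.1 CPM in LN replicates 1 and 4 overlapped the 21.6 to 58.7 CPM of spleen.

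Monocyte genes showed no common direction, with 5 of 12 called higher in spleen, 2 higher in LN and a median log2 fold of 0.04. Cd300e and Fcgr4, both typical of the patrolling type of monocyte, were higher in spleen. Fcgr4, an Fc receptor for IgG, was at 27.2, 23.1, 29.5 and 23.3 CPM in spleen and 1.86, 1.70, 1.24 and 1.73 CPM in LN (log2 fold 4.03, SE 0.17, adjusted p = 1.41e-06), and Cd300e was at 15.2 to 21.6 CPM against 0.381 to 1.14 CPM (4.61, SE 0.31, adjusted p = 1.4e-05). Ccr2, the chemokine receptor of the classical type, was higher in LN, at 66, 73.2, 45.8 and 54.3 CPM against 38.7, 34.3, 32.4 and 36 CPM (-0.71, SE 0.13, adjusted p = 0.00342), but this call was lost in the fit over all 48 tissue libraries (adjusted p = 0.0847). Ly6c2, a surface marker of the classical type, was not called (-0.50, adjusted p = 0.146), and neither were the patrolling type's markers Cx3cr1 (0.13, adjusted p = 0.503) and Ace (-0.35, adjusted p = 0.11). No difference between the types was tested.

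Mast cell and basophil genes pointed in opposite directions. The mast cell proteases Mcpt4, Tpsb2, Cpa3 and Cma1 were all higher in LN, Mcpt4 at 23.5, 17.5, 15.1 and 21.6 CPM against 1.11, 0.791, 0.762 and 0.811 CPM in spleen (log2 fold -4.44, SE 0.20, adjusted p = 2.09e-06). The basophil proteases Mcpt8 and Prss34 were higher in spleen at low levels, Mcpt8 at 0.482, 0.409, 0.906 and 0.736 CPM against 0.0233 to 0.094 CPM (3.43, SE 0.44, adjusted p = 0.00048). In the list of 11 genes, 5 were called higher in spleen and 4 higher in LN.

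Dendritic cell genes were described in separate lists by origin. Of 14 genes of dendritic cells that have migrated from tissues, 12 were called higher in LN, none higher in spleen, and Epcam and Cd200 were not called; the median log2 fold was -1.42. Ccl22, a chemokine they secrete, was at 162, 212, 132 and 182 CPM in LN and 11.3, 10.8, 10.3 and 8.39 CPM in spleen (log2 fold -4.03, SE 0.16, edgeR adjusted p = 1.06e-06). Fscn1, the actin-bundling protein fascin of mature dendritic cells, was at 380, 429, 287 and 432 CPM against 73.5, 74.7, 68.3 and 53.5 CPM (-2.46, SE 0.15, adjusted p = 8.1e-06). LN replicate 3, the library with the highest fat signal, was the lowest LN library for both. Cd207, the langerin of Langerhans and related dendritic cells, was at 3.63, 5.99, 4.67 and 3.52 CPM in LN and 2.17, 2.79, 1.64 and 2.52 CPM in spleen (-0.93, SE 0.23, adjusted p = 0.0162), and this call was lost without LN replicate 2 (adjusted p = 0.0525), without spleen replicates 1 and 3 (0.137), without spleen replicate 4 and LN replicates 2 and 3 (0.123) and in the fit over all 48 tissue libraries (0.412).

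Of 15 resident dendritic cell genes 5 were called higher in spleen, 3 higher in LN and 7 were not called (median log2 fold 0.00). The 3 higher in LN were Siglech, Ccr9 and Cd8a, the last of which also stands on the T cell list. Clec9a, a lectin of the list, was called higher in spleen, with ranges that overlap (0.64, edgeR adjusted p = 0.0215). Xcr1, the chemokine receptor of cross-presenting dendritic cells, was at 25.6, 25, 19.4 and 24.8 CPM in spleen and 29.7, 40.1, 22.3 and 31 CPM in LN and was not called (-0.33, adjusted p = 0.144). Clec4a4, the lectin DCIR2 of the other conventional type in spleen, was at 5.42, 7.23, 6.22 and 5.36 CPM in spleen and 1.09, 0.595, 0.43 and 0.782 CPM in LN (3.11, SE 0.28, adjusted p = 6.4e-05). Siglech, a marker of plasmacytoid dendritic cells, was at 183, 75, 70.7 and 84.9 CPM in LN and 34.3, 39.1, 25.4 and 39.7 CPM in spleen (-1.53, SE 0.30, adjusted p = 0.00509), and LN replicate 1 was far above the other LN libraries. The count of resident genes higher in spleen was 3 without LN replicate 2, and without spleen replicates 1 and 3 there was 1 higher in LN and Siglech was lost (-1.32, adjusted p = 0.082).

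**Figure D4:**
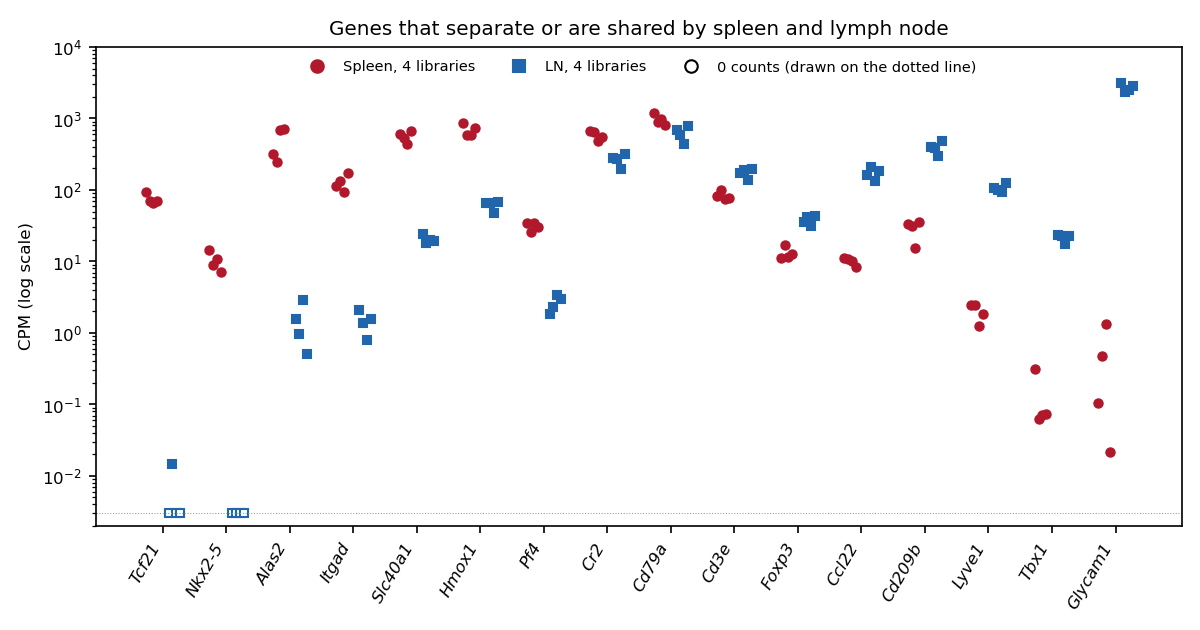
CPM (vertical axis, log scale) of 16 genes in the 4 spleen (red circles) and 4 LN libraries (blue squares); open symbols on the dotted line are 0 counts. Tcf21 and Nkx2-5 are at or near 0 in LN, Glycam1 is at 2370 to 3090 CPM in LN and at most 1.35 CPM in spleen, and the lymphocyte genes Cd79a and Cd3e differ by log2 folds of 0.68 and -1.02.

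Many genes of vessels and reticular stroma were higher in LN. Of 14 high endothelial venule genes, 8 were called higher in LN, 1 higher in spleen and 5 were not called (median log2 fold -0.91). Glycam1, a sulphated mucin that binds L-selectin on lymphocytes, was at 3090, 2370, 2500 and 2810 CPM in LN and at 0.105, 0.482, 1.35 and 0.0213 CPM in spleen (log2 fold -12.40, SE 1.03, edgeR adjusted p = 4.29e-05). Chst4, the sulfotransferase that completes its L-selectin ligand, was at 19.5, 19.1, 15.7 and 21.1 CPM against 1.30, 0.382, 0.474 and 0.832 CPM (-4.63, SE 0.38, adjusted p = 3.88e-05), and Fut7, the matching fucosyltransferase, at 12.9 to 22.6 CPM against 1.66 to 2.43 CPM (-3.06, SE 0.21, adjusted p = 1.43e-05). The exception was Madcam1, the mucosal addressin that lines the marginal sinus of the spleen, at 23.4, 18.5, 29.8 and 18.6 CPM in spleen and 10.6, 7.85, 5.46 and 11.8 CPM in LN (1.39, SE 0.26, adjusted p = 0.00388).

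Lymphatic endothelial genes were higher in LN for 9 of 13 members and higher in spleen for none (median log2 fold -1.87). Lyve1, a hyaluronan receptor, was at 107, 100, 93.9 and 126 CPM in LN and 2.43, 2.43, 1.26 and 1.82 CPM in spleen (log2 fold -5.71, SE 0.22, adjusted p = 8.86e-07). Tbx1, a T-box factor of developing lymphatics, was at 23.7, 22.5, 17.8 and 22.5 CPM against 0.316, 0.0636, 0.0719 and 0.0747 CPM (-7.39, SE 0.49, adjusted p = 1.32e-05). Prox1, the factor that defines lymphatic identity, was less far apart, at 26.6, 24.7, 19.4 and 26.1 CPM against 9.37, 11.7, 6.27 and 10.8 CPM (-1.31, SE 0.18, adjusted p = 0.000807).

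Blood endothelial genes were higher in LN for 9 of 18 members, higher in spleen for 1 and not called for 8 (median log2 fold -0.47). Pecam1, the junction protein CD31, was at 449, 441, 381 and 457 CPM in LN and 259, 244, 198 and 222 CPM in spleen (log2 fold -0.87, SE 0.09, adjusted p = 0.000177). Stab2, a scavenger receptor of sinusoidal endothelium, was the member higher in spleen, at 178, 219, 152 and 216 CPM against 98.4, 112, 84.9 and 110 CPM (0.96, SE 0.12, adjusted p = 0.000552). Rgs5, a pericyte gene, was higher in LN at 132 to 201 CPM against 11.5 to 14.4 CPM (-3.65, SE 0.17, adjusted p = 2.39e-06), whereas the contractile genes Acta2, Tagln and Actg2 were higher in spleen (1.38, 1.67 and 2.37; adjusted p = 0.0134, 0.000982 and 0.000912). Of the 12 smooth muscle and pericyte genes 5 were called higher in spleen, but 2 without spleen replicates 1 and 3, when Acta2 was lost (1.19, adjusted p = 0.104).

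Genes of the fibroblastic reticular cells, which build the lymphocyte zones, were higher in LN for 11 of 18 members, higher in spleen for 1 (Madcam1) and not called for 6 (median log2 fold -0.82). Ccl21a, the chemokine that draws CCR7-bearing cells into the T zone, was at 891, 772, 604 and 878 CPM in LN and 208 ± 44.3 CPM in spleen (mean ± SD, n = 4), with no overlap (log2 fold -1.87, SE 0.18, edgeR adjusted p = 9.31e-05). Its partner Ccl19 was closer, at 62.1, 67.4, 49.7 and 64.7 CPM against 45.2, 32, 37.8 and 24.9 CPM (-0.76, SE 0.18, adjusted p = 0.012), and was lost in the fit over all 48 tissue libraries (adjusted p = 0.199). Cxcl13, the chemokine of the B cell follicle, was not called, at 132 to 172 CPM in spleen and 140 to 200 CPM in LN (-0.24, adjusted p = 0.161). Ccl21a belongs to a family of near-identical copies, so its counts may hold reads of its relatives.

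Matrix genes split without a common direction, 8 of 25 being called higher in LN, 3 higher in spleen and 14 not called (median log2 fold -0.23). Col15a1, a basement membrane collagen, was at 60.3, 86.6, 108 and 85.6 CPM in LN and 8.12, 12.4, 9.53 and 12.6 CPM in spleen (log2 fold -2.96, SE 0.22, adjusted p = 2.45e-05), and Dcn, the small proteoglycan decorin, at 383 ± 48.9 CPM against 73.8 ± 18.7 CPM (mean ± SD, n = 4) (-2.34, SE 0.19, adjusted p = 3.34e-05). Col14a1, a collagen that binds fibrils, was the matrix gene with the largest fold towards spleen, at 122, 138, 107 and 177 CPM in spleen and 19.9, 25.7, 24.2 and 23.9 CPM in LN (2.57, SE 0.16, adjusted p = 1.03e-05). The ranges of the main fibrillar collagens overlapped, though Col1a1 was called higher in LN. It was at 108 to 157 CPM in spleen and 153 to 244 CPM in LN (-0.60, edgeR adjusted p = 0.0263). Col1a2 was not called (0.08, adjusted p = 0.687). Col3a1 was at 173 to 215 CPM in spleen and 177 to 524 CPM in LN, highest in LN replicate 3, and was not called (-0.62, adjusted p = 0.155).

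**Figure D5:**
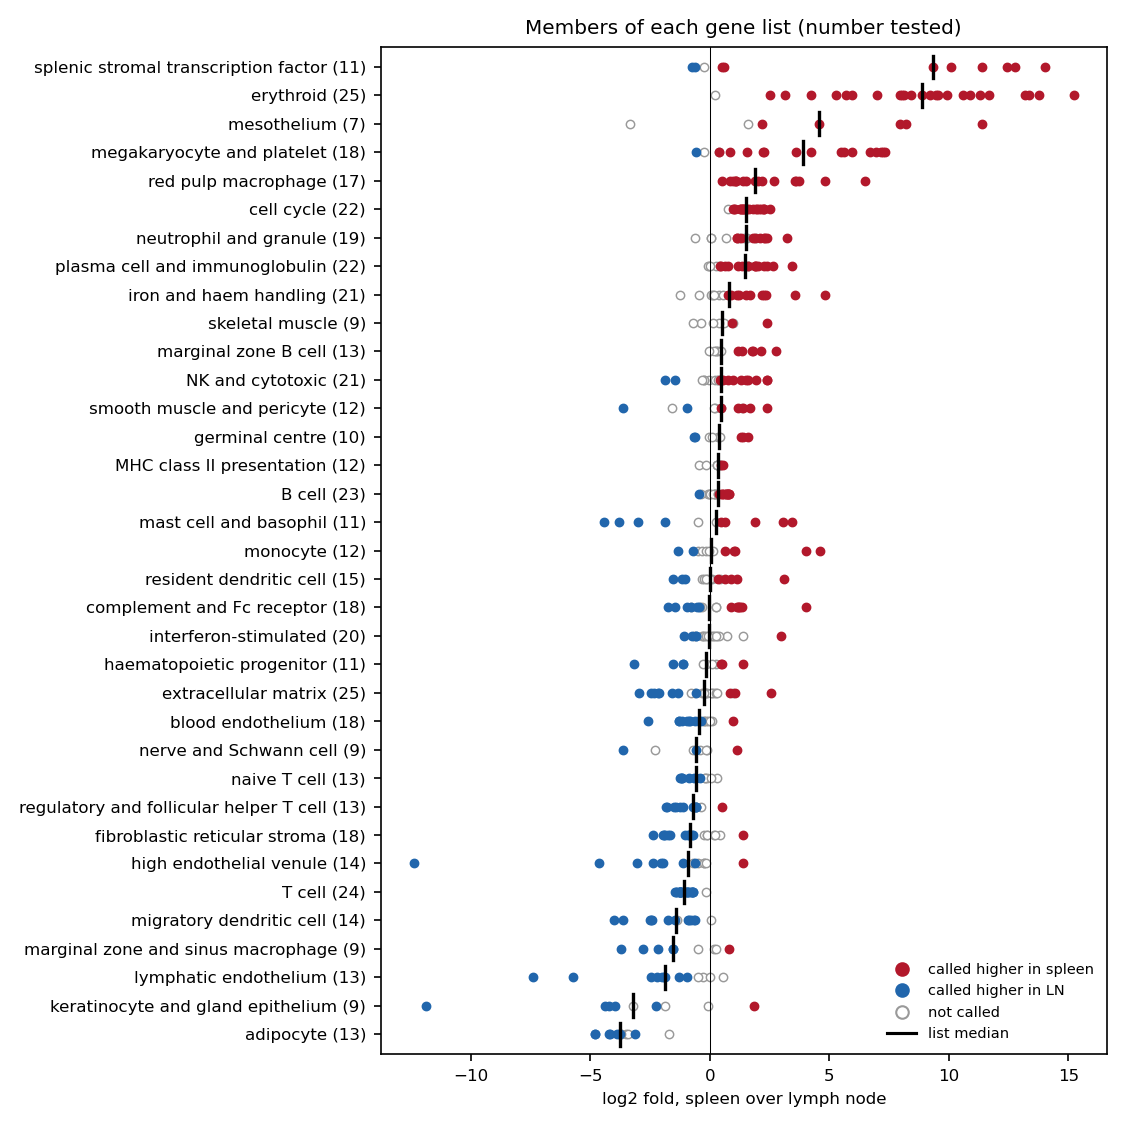
Log2 fold of spleen over LN (horizontal axis) for the tested members of each gene list with at least 5 of them, ordered by the list median (black bar); the number tested is in parentheses. Red points were called higher in spleen, blue higher in LN and open points were not called; the B cell and T cell members lie within 2 log2 units of 0, while the stromal factor and erythroid medians are at 9.34 and 8.88.

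Lymphocyte genes were shared by both organs, with folds far smaller than those of the stromal and red cell genes. T cell genes were nonetheless called higher in LN for 23 of 24 members and higher in spleen for none (median log2 fold -1.08, range -1.46 to -0.15). Cd3e, a chain of the T cell receptor complex, was at 82, 99.6, 75.8 and 77.3 CPM in spleen and 175, 188, 138 and 197 CPM in LN (log2 fold -1.02, SE 0.12, edgeR adjusted p = 0.00025). Cd4, the coreceptor of helper T cells, was at 97.2, 142, 96 and 118 CPM against 233 to 367 CPM (-1.38, SE 0.16, adjusted p = 0.000254), and Cd8a, that of cytotoxic T cells, at 124, 141, 102 and 105 CPM against 273 ± 54 CPM (mean ± SD, n = 4) (-1.17, SE 0.14, adjusted p = 0.000398). LN replicate 3 was the lowest LN library for all of these and still lay above each spleen library. Only Cd2, an adhesion receptor that other lymphocytes share, was not called (-0.15, adjusted p = 0.355).

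Variable segments of T cell receptors and of immunoglobulins pointed in opposite directions. Of 87 tested T cell receptor variable segments 81 were called higher in LN and none higher in spleen (median log2 fold -1.30), and of 198 immunoglobulin variable segments 130 were called higher in spleen and none higher in LN (median 1.41). The immunoglobulin segment median lay near that of the plasma cell and immunoglobulin list (1.48) and above that of the B cell list (0.33). Reads of similar segments may be shared between them by the counting. Naive T cell genes were higher in LN for 8 of 13 members: Il7r, the receptor for the survival cytokine interleukin 7, was at 233 to 269 CPM in LN and 67.3 to 139 CPM in spleen (log2 fold -1.19, SE 0.19, adjusted p = 0.00172), while the exit receptor S1pr1 was not called (-0.12, adjusted p = 0.389). In the fit over all 48 tissue libraries 5 of these naive genes were called. Genes of regulatory and follicular helper T cells were higher in LN for 10 of 13 members, and for 6 without LN replicate 4 or spleen replicate 1. Cxcr5, which also stands on the B cell list, was called higher in spleen (0.52, edgeR adjusted p = 0.0321). Il21 was not called (-0.57, adjusted p = 0.382). Foxp3, the factor of regulatory T cells, was at 35.3, 42, 31.8 and 43.7 CPM in LN and 11.1, 17, 11.6 and 12.7 CPM in spleen (-1.50, SE 0.15, adjusted p = 0.000134).

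Natural killer (NK) genes leaned to spleen, with 10 of 21 called higher there, 2 higher in LN and 9 not called (median log2 fold 0.46). Gzma, the protease granzyme A, was at 57.5, 48.1, 51.9 and 52.4 CPM in spleen and 12.3, 9.55, 7.80 and 12.2 CPM in LN (log2 fold 2.37, SE 0.15, edgeR adjusted p = 8.7e-06). Klrb1c, the NK receptor NK1.1, was at 18.3, 17.6, 14.9 and 18.2 CPM against 8.14, 7.39, 5.48 and 7.92 CPM (1.30, SE 0.13, adjusted p = 0.000152), and S1pr5, a receptor that guides NK cells out of nodes, at 6.30 to 8.01 CPM against 0.983 to 2.01 CPM (2.37, SE 0.22, adjusted p = 7.49e-05). Ccl5, a chemokine that T cells and dendritic cells also make, went the other way (-1.47, SE 0.14, adjusted p = 0.000115), as did the mast cell protease Cma1, which stands on this list and on the mast cell list. In the fit over all 48 tissue libraries 6 were called higher in spleen.

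B cell genes differed by small folds. Of 23 members 11 were called higher in spleen, 1 (Fcer2a, the low-affinity IgE receptor CD23) higher in LN and 11 were not called, with a median log2 fold of 0.33. Cd79a, a signalling chain of the B cell receptor, was at 1190, 896, 975 and 814 CPM in spleen and 685, 595, 436 and 774 CPM in LN, with no overlap (log2 fold 0.68, SE 0.18, edgeR adjusted p = 0.0205). Pax5, the factor that fixes B cell identity, was at 387 ± 78.6 CPM in spleen and 406 ± 74.4 CPM in LN (mean ± SD, n = 4 each) and was not called (-0.03, adjusted p = 0.907). The B cell calls were not stable: 6 were made without LN replicate 2, 3 without spleen replicates 1 and 3, and 4 without spleen replicate 4 and LN replicates 2 and 3. In the fit over all 48 tissue libraries, which has a term for the title code (D804 or D812) and takes its spread from all tissues, 0 were made. The log2 folds there were close to those of the main fit for Cd79a (0.72) and Fcer2a (-0.46). Cd79a was lost without LN replicate 2 or spleen replicate 3 (adjusted p = 0.0547 and 0.0523), without spleen replicates 1 and 3 (0.13) and without spleen replicate 4 and LN replicates 2 and 3 (0.0773). Fcer2a was lost without any single library other than LN replicate 3 (edgeR adjusted p = 0.0512 to 0.102) and without spleen replicates 1 and 3 (0.206).

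Of 13 marginal zone B cell genes 6 were called higher in spleen and none higher in LN (median log2 fold 0.48), a share much like the 11 of 23 of the general B cell list, and no difference between the lists was tested. Cr2, the complement receptor CD21, was at 675, 638, 482 and 548 CPM in spleen and 267 ± 50.9 CPM in LN (mean ± SD, n = 4; log2 fold 1.18, SE 0.15, edgeR adjusted p = 0.000416), but was not called in the fit over all 48 tissue libraries (1.18, adjusted p = 0.0573). Fcrl5, an Fc receptor-like protein of these cells, was at 48.3, 46.4, 33.7 and 39.7 CPM against 9.47, 9.03, 7.74 and 12.8 CPM (2.15, SE 0.17, adjusted p = 2.81e-05), and Dtx1, a target of Notch signalling, at 264 ± 43.2 CPM (mean ± SD, n = 4) against 116, 112, 79 and 121 CPM (1.35, SE 0.14, adjusted p = 0.00017). Cd1d1, the lipid-presenting molecule used with CD21 to recognise them, was not called (0.33, adjusted p = 0.439), with 114 CPM in LN replicate 3 above every spleen library. Notch2, the receptor they depend on, was at 172 to 258 CPM and 194 to 235 CPM (0.00, adjusted p = 0.989).

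Plasma cell and immunoglobulin genes were higher in spleen for 15 of 22 members and higher in LN for none (median log2 fold 1.48). Ighm, the IgM heavy chain, was at 7460, 8490, 7980 and 6810 CPM in spleen and 2920, 2250, 2380 and 2980 CPM in LN (log2 fold 1.59, SE 0.14, edgeR adjusted p = 6.05e-05), whereas Ighd, the IgD heavy chain of naive B cells, was not called (-0.10, adjusted p = 0.618). Jchain, the joining chain of IgM and IgA polymers, was at 951, 1270, 930 and 593 CPM against 163, 89.8, 209 and 145 CPM (2.65, SE 0.31, adjusted p = 0.000285). Igha, the IgA heavy chain, varied widely, at 1700, 2060, 654 and 251 CPM in spleen and 131, 79.6, 175 and 45 CPM in LN (3.45, SE 0.69, adjusted p = 0.00567). Prdm1 and Sdc1, the factor and the surface proteoglycan of plasma cells, were not called (0.39 and -0.04; adjusted p = 0.114 and 0.865).

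Germinal centre genes gave 3 calls higher in spleen and 2 higher in LN out of 10. Without spleen replicate 3 there was 1 higher in spleen. Bcl6, the factor of germinal centre B cells, was not called (log2 fold -0.04, edgeR adjusted p = 0.782). Among 12 genes listed for antigen presentation on MHC class II, 2 were called higher in spleen (Cd80 and Cd86) and 10 were not called (median log2 fold 0.33). Of all tested genes 12.9% were called higher in spleen, so these 2 calls do not set the list apart. Cd80 was lost without LN replicate 1 or 2 or spleen replicate 2 or 3 (edgeR adjusted p = 0.0561 to 0.0714) and without spleen replicate 4 and LN replicates 2 and 3 (0.155). H2-Aa, an MHC class II alpha chain, was at 1910 to 2930 CPM in spleen and 1480 to 2240 CPM in LN (0.31, SE 0.16, adjusted p = 0.176).

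Complement and Fc receptor genes showed no common direction, with 7 of 18 called higher in spleen and 6 higher in LN (median log2 fold -0.03). Those higher in LN included the complement components C3, C4b, C1ra, C1s1 and Cfb. C4b was lost without spleen replicates 1 and 3 (edgeR adjusted p = 0.119) and without spleen replicate 4 and LN replicates 2 and 3 (0.085). C3, the central component, was at 2610, 3350, 2710 and 3080 CPM in LN and 1000, 1150, 807 and 1160 CPM in spleen (log2 fold -1.47, SE 0.14, edgeR adjusted p = 9.27e-05). The 7 higher in spleen were the Fc receptor genes Fcgr1, Fcgr3, Fcgr4 and Fcer1g with the complement genes C6, C5ar1 and Cfp. Fcgr3, a receptor for IgG, was at 56.3, 60.5, 48.5 and 61.9 CPM in spleen and 24.4, 25.8, 22.9 and 24.1 CPM in LN (1.26, SE 0.09, adjusted p = 1.4e-05).

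Interferon-stimulated genes did not separate the organs: 15 of 20 were not called, 4 were higher in LN and 1, Rsad2, higher in spleen (median log2 fold -0.05). LN replicate 2 was the lowest LN library for all 20. Leaving out LN replicate 1, 3 or 4 or spleen replicate 1 or 2 left 2 called higher in LN. Rsad2, the antiviral protein viperin, was at 49.9, 32.2, 146 and 179 CPM in spleen and 13.6, 6.46, 19.6 and 13.2 CPM in LN (log2 fold 2.98, SE 0.60, edgeR adjusted p = 0.00584), the red cell order of the spleen libraries, while Isg15 was not called (1.37, adjusted p = 0.0645). Mx1, a dynamin-like antiviral protein, was higher in LN at 70.2, 40.5, 47.4 and 57.4 CPM against 22.5, 26.1, 24.2 and 24.7 CPM (-1.10, SE 0.16, adjusted p = 0.000889). Genes of blood progenitors gave 3 calls higher in spleen and 4 higher in LN out of 11, and the stem cell factor receptor Kit was not called (0.26, adjusted p = 0.276).

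Genes of neighbouring tissue marked particular libraries. All 13 adipocyte genes were highest of the 8 libraries in LN replicate 3 and second highest in LN replicate 2; 7 were called higher in LN (median log2 fold -3.75), and their sum was 659, 2940, 12500 and 291 CPM in LN and 275 to 483 CPM in spleen. Adipoq, the fat hormone adiponectin, was at 18.8, 121, 598 and 5.31 CPM in LN and 17.6, 20.3, 8.18 and 11.2 CPM in spleen and was not called (-3.72, edgeR adjusted p = 0.0546). The count ranged from 0 to 13 as libraries were left out in turn: without spleen replicate 3 or 4 it was 0, without spleen replicate 1 or 2 it was 1 and 2, without LN replicate 2 or 3 it was 3, and without LN replicate 1 or 4 it was 13.

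Of 9 tested keratinocyte and gland epithelium genes 5 were called higher in LN, and LN replicate 3 was the highest of the 8 libraries for 8 of the 9. Without spleen replicate 2 or 3 the count was 3, and without spleen replicates 1 and 3 it was 0. Krt5, the keratin of basal epithelial cells, was at 1.09, 4.14, 16.8 and 0.397 CPM in LN and had no count in spleen, at least 628-fold lower. The pioneer factor Foxa1, named above, had the same order at 2.02, 11, 28.5 and 0.233 CPM, with 1 count in spleen. Both calls held without LN replicates 2 and 3 and spleen replicate 4, and both were lost without spleen replicates 1 and 3 (edgeR adjusted p = 0.074 for Krt5 and 0.0617 for Foxa1). By contrast Tbx15, a T-box factor, and Cldn11, a tight junction protein, were even across LN, at 9.24, 10.4, 11.2 and 9.33 CPM and at 12.9, 12.9, 10.8 and 16.3 CPM, against at most 0.107 and 0.117 CPM in spleen (log2 fold -7.30 and -7.08, adjusted p = 2.16e-06 and 5.26e-07).

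In spleen replicate 4, 10 of 11 listed exocrine pancreas genes were above 100 CPM, and all but Cela1 and Prss2 failed the count filter. Ctrb1, a chymotrypsinogen, was at 0.136, 0.154, 0.0862 and 1380 CPM in spleen and at most 0.0235 CPM in LN. Apart from Cela1, an elastase-like gene at 12.9 to 25.2 CPM in the other spleen libraries and 0.963 to 3.69 CPM in LN, the other 9 stayed at or under 0.294 CPM in each of the other 7 libraries. The calls of Cela1 and Prss2 higher in spleen (adjusted p = 0.013 and 0.0482) include that library, without which Prss2 had a log2 fold of -0.45 (adjusted p = 0.421).

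Set beside the other 10 healthy tissues of the series (4 libraries each), these programmes were placed by the range of tissue means, as a description. Hmox1 had a mean of 695 CPM in spleen, 61.4 CPM in LN and 4.28 to 56.2 CPM in the others, and Klf1 69.8 CPM in spleen and at most 4.91 CPM (liver) in the others. Glycam1 had a mean of 2690 CPM in LN and at most 1.05 CPM elsewhere outside LN and spleen. Ccl22 was at 172 CPM in LN, 10.2 CPM in spleen and up to 72.2 CPM in thymus. The splenic stromal factors were also read elsewhere: Tcf21 reached 119 CPM in lung, Nkx2-5 73.1 CPM in heart, Tlx1 89.4 CPM in skin and Nkx2-3 23.5 CPM in colon, against 74.7, 10.4, 44.8 and 25.1 CPM in spleen.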

How the data were processed

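Whole-organ polyadenylated RNA was sequenced, and the authors deposited raw read counts per gene and library, which were used as they stand. Per the submitters' processing notes the tools were Trim Galore, FastQC, STAR and HTSeq with build mm10; no version is given there, and whether reads were counted by strand is not stated. Symbols came from GENCODE vM21 for 53274 of 53379 gene IDs. CPM are counts divided by the library total. Genes were kept by edgeR's filterByExpr and tested with TMM scaling and edgeR's quasi-likelihood test (edgeR 4.0.16, R 4.3.3) on the 4 spleen and 4 LN libraries, with Benjamini-Hochberg adjustment over all 19628 tested genes. SE is the absolute log2 fold divided by the square root of F. Intervals and the floor of 3 counts over a tissue cover counting error only. In simulated counts for spleen against LN over 19111 genes, 100 genes were changed 2-fold and 100 were changed 4-fold. The fit called 54 of the 100 2-fold and 94 of the 100 4-fold changes in the right direction. Genes of low count were not changed, and far fewer genes were changed than were called in the data. These shares therefore do not give the power of the comparison itself.

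The genes named are the 15 with the largest fold in each direction that were called, did not overlap, had a mean of at least 5 CPM in the higher tissue and were no predicted model or receptor segment, together with defining, leading called and abundant uncalled members of 37 gene lists. The members and lists were chosen with earlier results of these data known. DESeq2 1.42.0 and other scalings, filters and sets of libraries were alternatives. The fit over all 48 tissue libraries held a term for the title code (D804 or D812) and took its spread from all tissues together. No 2 libraries of a tissue held identical counts. Some list members are not reported here by name.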

Additional observations from a re-analysis of the deposited data

Results flagged for a closer look

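In 408 groups of 4 values (the summed CPM of each list and the CPM of each gene in 1 tissue), the highest or lowest value lay farther from the other 3 than Dixon's 95% limit in 28; chance gives about 1 in 20 groups. Nothing was tested about their cause.

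LN replicate 3 stood apart for summed lists and single genes. Its erythroid sum was 396 CPM against 233 to 254 CPM in the other LN libraries, its T cell sum 2980 CPM against 3790 to 3920 CPM and its natural killer sum 424 CPM against 556 to 571 CPM. It was low for C1qa (147 CPM against 181 to 187 CPM), C1qb (134 against 157 to 160 CPM), Cd86 (61.4 against 76.2 to 78.1 CPM) and Hmox1 (48 against 65.3 to 67.1 CPM). It was high for Hoxa4 (1.94 against 0.857 to 0.987 CPM) and Hoxb4 (11.1 against 9.55 to 9.76 CPM). The other LN libraries stood apart less often: replicate 2 had an interferon sum of 708 CPM against 1050 to 1110 CPM, replicate 4 a blood endothelium sum of 1910 CPM against 1720 to 1740 CPM and a Ppbp level of 2 CPM against 0.123 to 0.176 CPM, and replicate 1 a Siglech level of 183 CPM against 70.7 to 84.9 CPM.

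Spleen replicate 4 had an exocrine pancreas sum of 5910 CPM against 13.9 to 25.7 CPM, with Cela1 at 793 CPM, Ctrb1 at 1380 CPM and Prss2 at 376 CPM. It was also high for the platelet gene Ppbp (113 against 74.2 to 78.3 CPM). Spleen replicate 3 was low for the blood endothelium sum (1190 against 1370 to 1380 CPM), C1s1 (127 against 149 to 153 CPM), Cd86 (87.5 against 106 to 108 CPM) and Xcr1 (19.4 against 24.8 to 25.6 CPM). Spleen replicate 1 was high for Barx1 (2.02 against 0.503 to 0.725 CPM), C1qc (415 against 294 to 310 CPM), Cfp (404 CPM, above the other 3), Cma1 (2.91 against 2.18 to 2.26 CPM) and Mcpt4 (1.11 against 0.762 to 0.811 CPM), and low for S1pr5 (6.3 against 7.95 to 8.01 CPM).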

How the results depend on the processing

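Over 19 alternatives, 2523 genes called higher in spleen and 3132 higher in LN became 710 and 776 when at least a 2-fold difference was asked for (edgeR's glmTreat). Of 138 named genes that were called, 81 kept their call in every alternative that tested them (Barx1, Irx2, Mcpt8 and Prss34 were not tested under the filter of 1 CPM in 4 libraries). The test for at least 2-fold is among these alternatives and asks a stricter question than the main test. Several genes with modest folds, such as Cd3e, Cd8a and Pecam1, were lost only there. Leaving out 1 library at a time gave 1847 to 2846 and 2237 to 3189 calls. In alternatives chosen after seeing the data, the counts were 1664 and 1757 without spleen replicate 4 and LN replicates 2 and 3, and 1818 and 1756 without spleen replicates 1 and 3; fewer libraries were fitted there, and the cause was not tested further. DESeq2 gave 3249 and 3372 and the fit over 48 libraries 2803 and 3395. That last fit did not call Cr2, Ccr2, Ccl19, Cd207, C4b, Cd80, Cd79a, Fcer2a, Hoxa5, Meis2, Nr2f2 and Pbx3 (adjusted p = 0.0573 to 0.516). With 1 library left out the log2 fold of Prss2 ran from -0.45 to 9.31; it changed sign without spleen replicate 4 (-0.45) and without that library and LN replicates 2 and 3 (-0.65). With a replicate block by library-number set the counts were 1896 and 2431. Spleen and LN libraries of the same set correlated at -0.22, 0.0976, -0.00802 and 0.08 in their deviations. Pairs from different sets ran from -0.129 to 0.109. Whether libraries of a set came from the same mouse is not given in the labels and was not tested. With the block C4b, Cd80, Cela1, Fcer2a, Fech, Hoxa5, Prss2 and Top2a were not called (adjusted p = 0.0501 to 0.457). Scaling moved the median log2 fold by at most 0.037. In the simulated counts, where few genes and none of low count were changed, 54 of 100 2-fold changes were called.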

Other observations

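The genes described here fell outside the rule for named genes or were left out of the text above, and were chosen after their values had been seen. Coch, which encodes the secreted protein cochlin, was at 1310, 1200, 988 and 1090 CPM in spleen and at 4.47, 3.43, 2.15 and 4.14 CPM in LN (log2 fold 8.38, SE 0.26, edgeR adjusted p = 3.71e-07). Nr5a1, the nuclear receptor SF-1 known from steroid-making organs, was at 30.6, 26.6, 25.1 and 28.9 CPM in spleen and at 0.0117 to 0.029 CPM in LN (10.26, SE 0.21, adjusted p = 7.02e-08). Gdf6, a growth factor of the bone morphogenetic protein family, was at 22.7 to 35.5 CPM in spleen and 0.0822 to 0.203 CPM in LN (7.72, SE 0.29, adjusted p = 8.16e-07). All 3 lay in a narrow range over the spleen libraries and did not follow the red cell order.

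In the other direction, Vtn, the adhesive plasma protein vitronectin, was at 61.6, 60.6, 49.9 and 67 CPM in LN and 0.271, 0.273, 1.02 and 0.896 CPM in spleen (log2 fold -6.55, SE 0.48, edgeR adjusted p = 2.13e-05). Meox2, a homeobox gene of mesoderm and vessels, was at 28.4, 33.2, 31.8 and 35.9 CPM in LN and 0.172 to 0.452 CPM in spleen (-6.63, SE 0.27, adjusted p = 1.24e-06). Ccl8, a chemokine, was at 55.6, 52.7, 32.2 and 42.2 CPM in LN and 0.16 to 0.906 CPM in spleen (-6.23, SE 0.49, adjusted p = 3.31e-05). LN replicate 3, the library with the highest fat signal, was not the highest LN library for any of these 3 genes.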
